A study of Mus musculus with 45 samples.

Results

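The 5 mammary tumors of MMTV-HRas mice were compared by array comparative genomic hybridization with the 40 tumors of 7 other mouse models, and the members were chosen by the model named in the label of the tumor channel, which makes them 5 of 45 arrays. MMTV-HRas mice carry an H-Ras transgene under the mouse mammary tumor virus (MMTV) promoter, which is active in the mammary epithelium. The other models were MMTV-PyMT (n = 9), MMTV-Myc (labelled MMTV-c-Myc, n = 5), MMTV-Her2/neu (n = 5), MMTV-Wnt1 (n = 5), C3(1)-Tag (labelled C3(1)/SV40 T/t-antigens, n = 5), BRCA1-/-;p53+/- (labelled BRCA1fl/fl;p53+/-;MMTV-cre, n = 5) and p53-/- (labelled p53fl/fl;MMTV-cre transplant, n = 6). All were labelled as invasive mammary tumors of female mice, no age was given, and DNA of each was hybridized against reference DNA, pooled spleen by the labels, on 1 array.

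H-Ras is a small GTPase that relays signals from growth factor receptors when it is loaded with GTP, and exchange factors load it while GTPase activating proteins switch it off. Active Ras drives the Raf-MAPK kinase chain, PI3-kinase and the exchange factors of Ral. Array comparative genomic hybridization does not read the activity of these proteins: it reads how much DNA of each place in the genome a tumor holds relative to the reference. Mouse chromosomes have the centromere at one end, so that a gain or loss of a whole chromosome appears as a single level along all of its probes.

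Every direction below takes the Cy3 dye over the Cy5 dye as tumor over reference, although the labels give Cy5 to the tumor. This is the direction of the interval table that the authors deposited: all 46 filtered intervals of the MMTV-HRas arrays and 725 of 755 over the 45 arrays (96.0%) had the sign of Cy3 over Cy5. With the dyes as labelled, every gain below becomes a loss. Log2 ratios were centred on the median of the autosomal probes of each array, over 40666 autosomal probes placed on mm8. The SD of a single probe was 0.23 to 0.29 on the 5 arrays and 0.16 to 0.48 on the others, and their Cy5 signals had medians of 3.36 to 6.21 times background. Tumors Hras_An1_3, Hras_An2_3, Hras_An3_3 and Hras_An4_3 (An1 to An4 from here on) fill 1 slide and 1 scan date that hold no other model. Haras_An5_3RPT (An5) lies on another slide, scanned on a date shared with 4 arrays of other models. Slide and model can therefore not be told apart in An1 to An4. Of the other models, C3TAg_5RPT and H2N53 had nearly the same profile (Pearson's r = 0.960 over 2057 bins), as had C3TAg_7RPT and H2N61 (r = 0.928), and the Wnt1 probe of Wnt_4635 was at 0.07 on the log2 scale against 1.07 or more in the other 4 MMTV-Wnt1 tumors. Results are also given without these 5 arrays where that ends a call or moves a value by more than 1.5 times.

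MMTV-HRas tumors carried gains of whole chromosomes. A segment of probes was called gained at a mean log2 ratio of at least 0.2 and lost at -0.2 or below. In An1, An2, An3 and An4 not a single 1 Mb bin was lost, and 92.9 to 100% of the altered bins of these 4 tumors lay on autosomes with at least 90% of their probes in 1 state. In An5 this share was 87.7%. Over the 36 tumors of other models with altered bins it had a median of 79.3% and ran from 0 to 100%. The trait was therefore not particular to MMTV-HRas: the MMTV-PyMT tumor PyMt317, for example, was at 100% with no bin lost. To compare steps within an array, levels are also given above the commonest level of its bins (the peak of the density of bin medians). A single extra copy in every cell of a diploid sample would stand at 0.58 on this scale. In bulk DNA, the number of copies in a cell and the share of cells that carry them cannot be told apart.

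In An4, 6 autosomes stood at almost 1 level: chromosomes 2, 6, 14, 15, 17 and 19 lay between 0.55 and 0.57 above the commonest level. The other 13 autosomes of An4 lay between -0.02 and 0.02. In An2, only chromosomes 2 (0.51) and 18 (0.50) were gained, and chromosome 17 stood at 0.09, above the other 16 unaltered autosomes, which lay between -0.04 and -0.01. An1 and An3 each held 2 steps. In An3, chromosomes 1 (0.57), 8 (0.53) and 17 (0.54) stood on the lower step, and chromosomes 6 (0.90) and 15 (0.84) on the higher. In An1, chromosomes 1 (0.39), 2 (0.31), 9 (0.36), 12 (0.38), 17 (0.36) and 18 (0.32) stood on the lower step, and chromosomes 6 (0.90) and 15 (0.78) on the higher. On a linear scale, the mean excess of chromosomes 6 and 15 was 1.79 times that of the other gained autosomes in An3, 2.83 times in An1, 1.25 times in An5 and 0.995 times in An4.

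**Figure D1:**
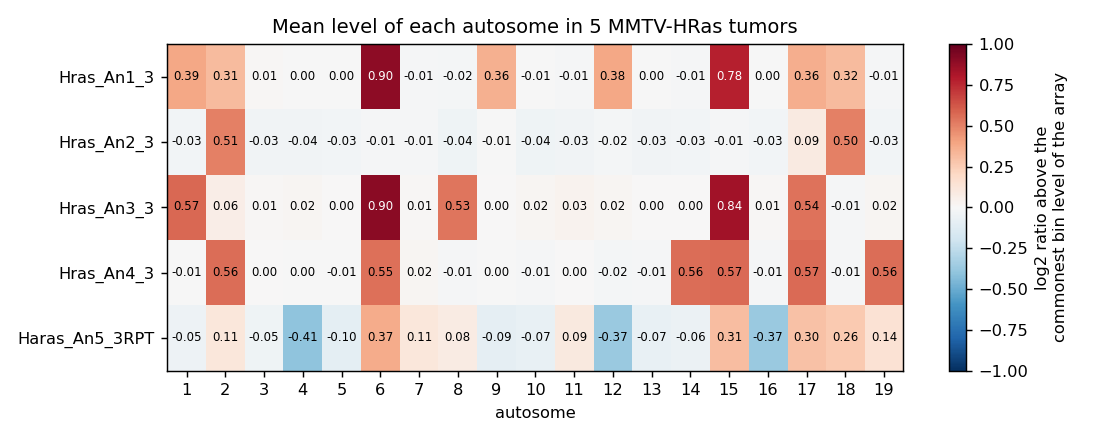
Rows are the 5 MMTV-HRas tumors and columns the 19 autosomes. Each cell gives the mean log2 ratio (Cy3 over Cy5) of the autosome above the commonest bin level of its array, in red above 0 and in blue below. Chromosomes 6, 15 and 17 are red in An1, An3, An4 and An5, with the darkest cells (0.78 to 0.90) in An1 and An3, and blue cells beyond -0.2 occur only in An5.

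An5 differed from the other 4 in its losses. Relative to the commonest level, chromosomes 4 (-0.41), 12 (-0.37) and 16 (-0.37) were lost over all their probes, and chromosomes 6 (0.37), 15 (0.31), 17 (0.30) and 18 (0.26) were gained. Its profile was also less even: bins of an autosome had an SD of 0.12, against 0.09 to 0.10 in the other 4, and An5 had 20 altered segments, against 2 to 8. Many of these divide one altered chromosome into stretches of unlike level. Chromosome 15, for example, stood at 0.39 up to 73153063 and at 0.24 from 73221945 to its end (median-centred). The ratios were not corrected for base composition, and whether the stretches of unlike level in An5 are changes of copy number was not tested.

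Chromosomes 6, 15 and 17 were higher in MMTV-HRas tumors than in the other 40 tumors. Chromosome 6 had a median-centred mean log2 ratio of 0.74 in An1, -0.05 in An2, 0.79 in An3, 0.41 in An4 and 0.36 in An5. All but An2 lay above the mean of the other tumors, 0.13 ± 0.20 (SD, n = 40), and none of the 40 reached An1 or An3. The difference was 0.32 (p = 0.00395, two-sided exact permutation test over all assignments of the 45 arrays, adjusted p = 0.0250 by Benjamini-Hochberg over 19 autosomes). Chromosome 15 stood at 0.62 in An1, -0.05 in An2, 0.73 in An3, 0.43 in An4 and 0.30 in An5, against 0.08 ± 0.18 (SD, n = 40). Here too An2 alone lay among the unaltered values, and only 3 of the 40 exceeded the MMTV-HRas median. The difference was 0.32 (p = 0.00219, exact permutation test, adjusted p = 0.0208). Chromosome 17 stood at 0.20 in An1, 0.05 in An2, 0.43 in An3, 0.43 in An4 and 0.29 in An5, against 0.04 ± 0.15 (SD, n = 40). All 5 were above 0, and 2 of the 40 exceeded the MMTV-HRas median. The difference was 0.24 (p = 0.00200, exact permutation test, adjusted p = 0.0208).

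These 3 calls did not all pass with only 4 of the tumors. Without An1 the adjusted p of chromosomes 6, 15 and 17 was 0.0800, 0.0800 and 0.0560 (exact permutation tests), without An3 it was 0.0812, 0.0753 and 0.0712, and without An4 it was 0.0696 for each. It was 0.0390 for each without An5 and 0.00397 for each without An2. With normexp background correction none passed (adjusted p = 0.512 for chromosome 6 and 0.297 for chromosomes 15 and 17, exact permutation tests), and that correction shrank the probe SD of An1 from 0.23 to 0.016. On the scan date of An5, chromosome 15 was at 0.30 in An5 against -0.03 to 0.24 in the 4 arrays of other models, and chromosome 17 at 0.29 against -0.04 to 0.21. Chromosome 6, at 0.36, lay inside the range of those 4 arrays, 0.05 to 0.51.

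**Figure D2:**
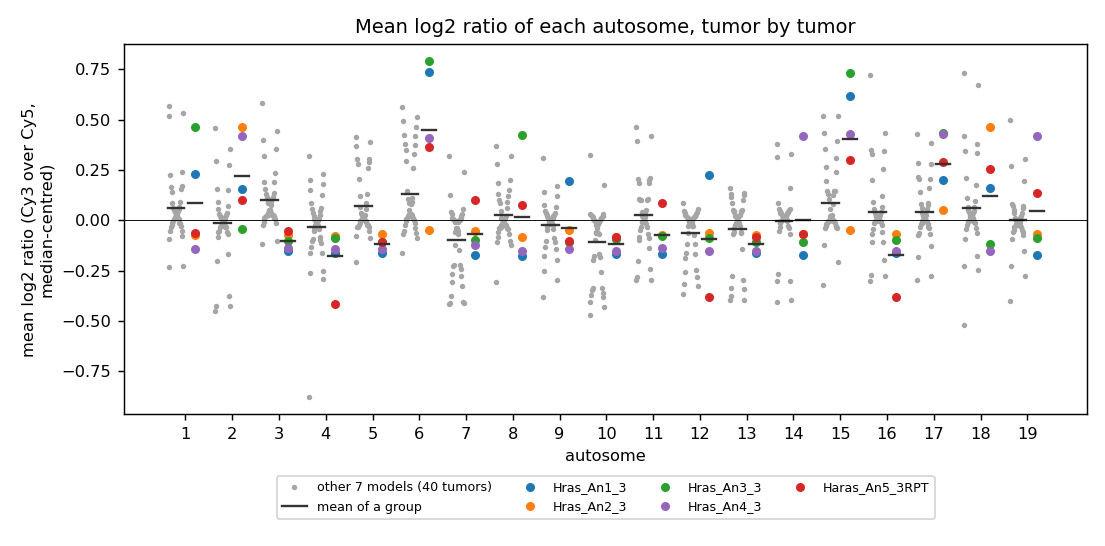
For each autosome, grey points are the 40 tumors of the other 7 models and coloured points the 5 MMTV-HRas tumors. The vertical axis is the mean log2 ratio (Cy3 over Cy5, median-centred) and the bars mark the mean of each group. On chromosomes 6, 15 and 17 the MMTV-HRas means are 0.45, 0.41 and 0.28, against 0.13, 0.08 and 0.04. On chromosomes 3 and 5 all 5 lie between -0.16 and -0.05.

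Set against 1 model at a time, with p-values adjusted over the 7 models, chromosome 17 passed the threshold in 4 comparisons that share the same 5 MMTV-HRas tumors. The difference was 0.39 against p53-/- (adjusted p = 0.0370, exact permutation test), 0.28 against MMTV-Myc (0.0370), 0.23 against MMTV-PyMT (0.0370) and 0.24 against BRCA1-/-;p53+/- (0.0417). It was 0.12 against MMTV-Her2/neu (adjusted p = 0.254, exact permutation test). Chromosomes 6 and 15 passed against no single model. For chromosome 6 the difference ran from 0.14 against p53-/- tumors, whose mean was 0.31 ± 0.25 (SD, n = 6), to 0.47 against MMTV-Wnt1, with adjusted p from 0.0909 to 0.413 (exact permutation tests). For chromosome 15 it ran from 0.15 against BRCA1-/-;p53+/- to 0.40 against MMTV-Myc, with adjusted p from 0.0884 to 0.373 (exact permutation tests). With arrays centred on the density peak of their probes or corrected with normexp, chromosome 17 passed against 0 models, and with no centring against 2. Leaving out An3, An4 or An5 ended all 4 calls of chromosome 17 and without An1 it passed against 3 models. Without An2, the models passed against were 5 for chromosome 17, 4 for chromosome 6 and 6 for chromosome 15. Tests of 5 tumors against 5 cannot give a p below 0.00794.

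Chromosome 2 was higher as well, but less firmly. It stood at 0.15 in An1, 0.47 in An2, -0.05 in An3, 0.42 in An4 and 0.10 in An5, against -0.01 ± 0.19 (SD, n = 40). An2 was above all 40 and An3 lay among them. The difference was 0.23 (p = 0.0147, exact permutation test, adjusted p = 0.0464). The adjusted p was 0.0663 without the 5 arrays in doubt, 0.226 without An2, 0.199 without An4, 0.0800 without An1 and 0.0712 without An3 (exact permutation tests), and leaving out single tumors of other models ended the call in 17 of 40 cases, at adjusted p of up to 0.0568. It was 0.0895 with the density peak and 0.319 with normexp (exact permutation tests). Against single models, chromosome 2 passed in 0 of 7 comparisons (smallest adjusted p = 0.0694, exact permutation tests). This count depended on the setting: it was 4 with the density peak, 4 with the commonest bin level and 5 without An3, and 0 with no centring and with normexp.

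Chromosomes 3 and 5 were lower on the median-centred scale, and these calls depended on the centring and on single tumors. For both, the adjusted p was 0.0800 without An1, 0.0712 without An3 and 0.0696 without An4, and 0.297 with normexp (exact permutation tests). Chromosome 3 stood at -0.15 in An1, -0.07 in An2, -0.10 in An3, -0.14 in An4 and -0.05 in An5, against 0.10 ± 0.14 (SD, n = 40), a difference of -0.20 (adjusted p = 0.0284, exact permutation test). Chromosome 5 lay between -0.16 and -0.07 in the 5 tumors, against 0.07 ± 0.15 (SD, n = 40), a difference of -0.19 (adjusted p = 0.0294, exact permutation test). These values are close to the commonest bin level of each array, which lay at -0.16 in An1, -0.04 in An2, -0.11 in An3, -0.14 in An4 and -0.01 in An5. Relative to that level, chromosome 3 of the 5 tumors lay between -0.05 and 0.01, and chromosome 5 between -0.10, in An5, and 0.00. With every array centred on its commonest bin level, a scale chosen after the data were seen, the differences were -0.14 for chromosome 3 (adjusted p = 0.301) and -0.12 for chromosome 5 (adjusted p = 0.390), both by exact permutation tests. Against single models, chromosome 3 was lower than in 6 of 7 and chromosome 5 than in 7 of 7 (median-centred, adjusted p of at most 0.05, exact permutation tests). Centred on the commonest bin level, these counts were 6 and 0, on the density peak 5 and 0, and with normexp 3 and 0. Chromosomes 6, 15 and 17 remained higher on that scale, with adjusted p of 0.0417, 0.0349 and 0.0125 (exact permutation tests), and chromosome 2 did not pass (0.0873). Chromosome 16, lost in An5, had a difference of -0.22 (adjusted p = 0.0656, exact permutation test). It passed with no centring (adjusted p = 0.0410, exact permutation test) and in 4 of 40 settings that left out a tumor of another model.

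Counted as tumors with at least 10% of an autosome's probes gained, chromosomes 6, 15 and 17 were each gained in 4 of 5 MMTV-HRas tumors (80%, with a Clopper-Pearson 95% interval of 28.4 to 99.5%), and in the same 4, An1, An3, An4 and An5. In the other models, chromosome 6 was gained in 15 of 40 tumors (37.5%), chromosome 15 in 10 (25.0%) and chromosome 17 in 9 (22.5%). The gains of chromosome 6 in other models lay mostly in BRCA1-/-;p53+/- (5 of 5) and p53-/- (5 of 6), with none in MMTV-Myc or MMTV-Wnt1. Chromosome 2 was gained in 3 of 5 MMTV-HRas tumors (An1, An2 and An4) and in 5 of 40 others, and chromosome 1 in 2 of 5 (An1 and An3) and in 5 of 40 others. Chromosome 18 was gained in 2 of 5 (An2 and An5). Chromosomes 8 (An3), 12 (An1), 14 and 19 (both An4) were each gained in 1 tumor. A gain of chromosomes 6, 15 and 17 together occurred in 4 of 5 MMTV-HRas tumors and in 1 of 40 others, the BRCA1-/-;p53+/- tumor Brca_54. Chromosomes 6 and 15 were gained together in 7 of the 40. This combination was picked from the tumors themselves and was not tested.

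**Figure D3:**
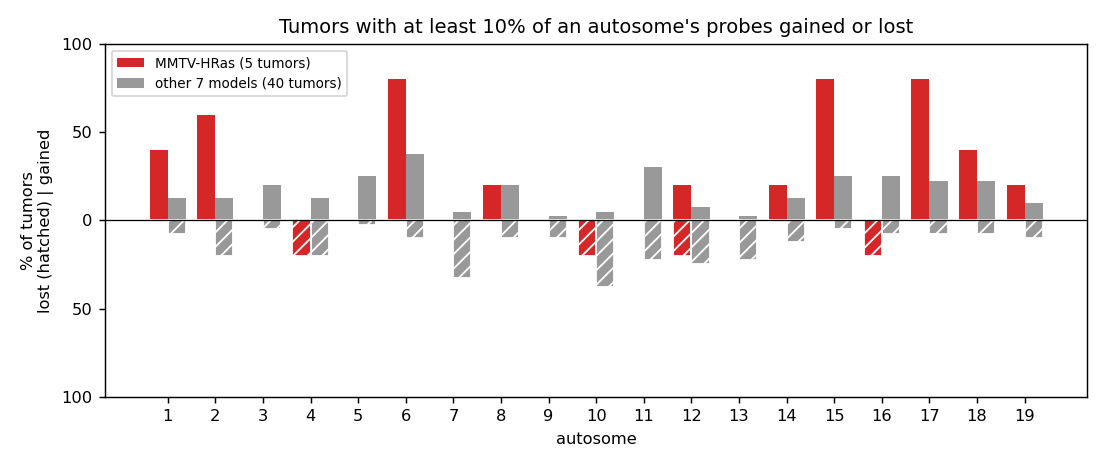
Bars above 0 give the percentage of tumors with at least 10% of the probes of an autosome gained, and hatched bars below 0 the percentage with at least 10% lost, in red for the 5 MMTV-HRas tumors and in grey for the 40 others. Chromosomes 6, 15 and 17 reach 80% in MMTV-HRas, against 37.5, 25.0 and 22.5% in the others.

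Chromosome 7 was lost in no MMTV-HRas tumor and in 13 of the 40 others, and the losses of chromosomes 4, 10, 12 and 16 were those of An5, each in 1 of 5. That of chromosome 10 was a single segment of 6.6 Mb at -0.25, with 15.8% of the probes. The authors' intervals held no loss on chromosome 10 of An5. An1 shows how near some counts lie to the threshold. Its chromosome 17 was gained at 0.202, whereas its chromosomes 9 (0.196) and 18 (0.16) stayed below 0.2 and its chromosome 2 passed over 17.8% of its probes. By the intervals that the authors called, the counts for chromosomes 6, 15 and 17 were also 4 of 5, and 43.5% of the bins of An1 were gained, against 28.9% here. Those intervals gave gains of chromosome 18 in 3 tumors, of chromosome 19 in 2 and of chromosome 9 in 1, against 2, 1 and 0 here.

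The stretches gained in at least 4 of the 5 tumors covered 324.9 Mb on 3 autosomes. They took in all of chromosome 6 (chr6:3274714-149512282, 146 Mb, 1143 gene names) and all of chromosome 15 (chr15:3229082-103393065, 100.2 Mb, 790 gene names). On chromosome 17 they took in chr17:3075728-22916072 and chr17:36459275-95077557, and the stretch between them was called in 3 tumors. This gap was that of An5 and depended on the centring. Chromosome 17 of An5 was gained over 65.6% of its probes here and over 100% relative to the commonest bin level. By the authors' intervals it was 99.8%. No stretch was gained in all 5, and the losses, all in An5, recurred in none. Of chromosome 2, chr2:36389292-84600407 (48.2 Mb) was gained in 3 tumors, with An1 just past the threshold at 0.21.

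Over the autosomes, 33.2% of 1 Mb bins were altered in An5, 28.9% in An1, 29.4% in An4, 27.3% in An3 and 11.3% in An2. The mean of 26.0 ± 8.5% (SD, n = 5) differed from that of the other tumors, 23.6 ± 25.9% (SD, n = 40), by 2.45 points (adjusted p = 0.842, exact permutation test, Benjamini-Hochberg over 3 shares). The size of this difference depended on the setting: it was 24.9 points with no centring (adjusted p = 0.0881, exact permutation test), 6.68 with the density peak, 7.31 with the commonest bin level, 6.98 by the authors' intervals, 6.70 at a threshold of 0.3, 4.00 without the 5 arrays in doubt and -0.54 with normexp, and among the settings that left out 1 MMTV-HRas tumor it ran from 0.65 without An5 to 6.13 without An2. None of these passed the test. The gained share was 23.0 ± 8.0% against 12.3 ± 13.1% (adjusted p = 0.253, exact permutation test) and the lost share 3.05 ± 6.83% against 11.2 ± 14.2% (adjusted p = 0.338, exact permutation test). Neither difference passed the test, and with no centring the lost share differed by 16.1 points in the other direction (adjusted p = 0.0881, exact permutation test). The lost share differed by -8.19 points in the main setting. It differed by -2.92 at a threshold of 0.3, -3.24 by the authors' intervals, -4.07 with normexp and -4.97 with the commonest bin level. The gained share differed by 10.6 points, and by 3.54 with normexp. Against single models, the altered share was higher than in MMTV-Myc, at 2.09 ± 3.09% (n = 5, adjusted p = 0.0278, exact permutation test), and than in MMTV-PyMT, at 7.25 ± 6.62% (n = 9, adjusted p = 0.0140, exact permutation test). With normexp it differed from 0 models, and without the 5 arrays in doubt from 3. It was 53.6 ± 22.8% (n = 6) in p53-/- tumors and 7.77 ± 13.8% (n = 5) in MMTV-Wnt1 (adjusted p = 0.0795 for both, exact permutation tests). MMTV-HRas tumors had 8.4 ± 6.8 altered segments (n = 5) against 22.1 ± 22.3 (n = 40) and 4.8 ± 1.6 autosomes altered over at least 90% of their probes against 3.4 ± 4.0, and neither difference passed the test (p = 0.189 and p = 0.473, exact permutation tests). With no centring the whole autosomes differed by 5.85 (p = 0.00816, exact permutation test), and with normexp the segments differed by 8.25 (p = 0.548, exact permutation test), in the other direction. Single probes were clipped before segmentation, a step added after seeing the data. Without it the segments differed by -74.7 instead of -13.7 (p = 0.199, exact permutation test).

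**Figure D4:**
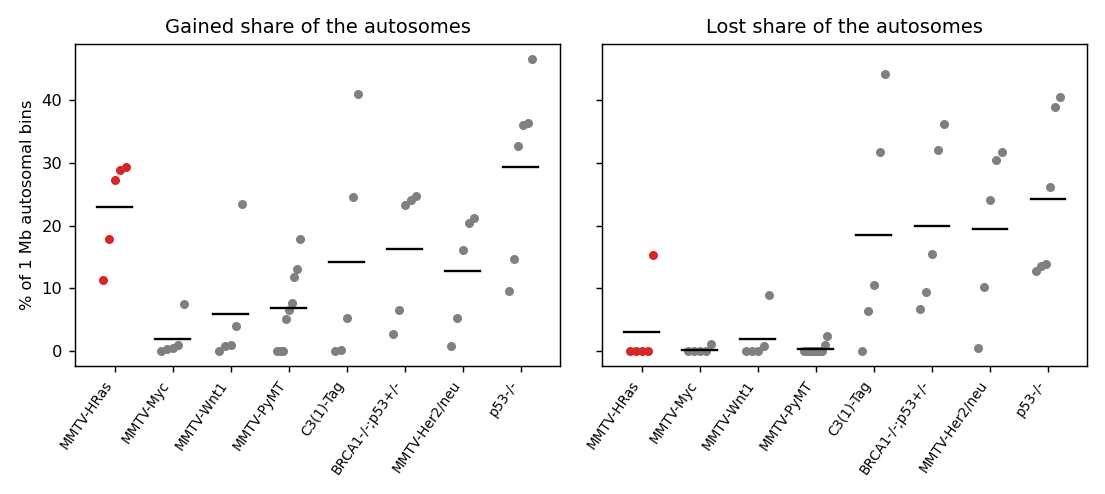
Each point is a tumor and each bar the mean of its model, with the percentage of 1 Mb autosomal bins gained on the left and lost on the right. The 5 MMTV-HRas tumors (red) lie between 11.3 and 29.4% gained, and 4 of them are at 0% lost, with An5 at 15.3%.

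In An1 to An4, altered segments at a level unlike that of the rest of their chromosome stood out at 2 places, both in An3. These 2 were found by reading the segments past the threshold, so that they are given without a test. Chromosomes 2 and 5 of An1 were also divided, into 3 segments each. Chromosome 2 of An1, called gained over part of its length, was gained over all of it when centred on the commonest bin level. No segment of chromosome 5 of An1 passed the threshold, and its division was not examined. Within the highly gained chromosome 15 of An3, the stretch chr15:91904744-101952511 (294 probes, 139 gene names) stood at 0.56 above the commonest level, on the lower step of this array, with the rest of the chromosome at 0.90. The same stretch differed from the rest of chromosome 15 by -0.05 to 0.03 in the other 4 MMTV-HRas tumors. In the 40 other tumors the median of the stretch was within -0.10 and 0.06 of that of the rest. The stretch holds the probe for Wnt1, a secreted growth factor and a classic target of MMTV insertion, which was at 0.24 in An3 (median-centred) and at 0.65 in An1. It also holds the probe for Wnt10b, a gene of the same family, at 0.54 in An3 and 0.43 in An1, so that single probes differed in direction. The probe for Myc, the transcription factor, lies outside it and was at 1.20 in An3 and 0.56 in An1.

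The other was a short segment of 6 probes on chromosome 2, chr2:30923013-31116942, over Fnbp1, Gpr107 and Freq. Its mean in An3 was 1.00, and 1 of the 2 Gpr107 probes, at 3.57, raised it: without that probe the mean was 0.48, and the second Gpr107 probe was at -0.06. The other 4 probes lay between 0.46 and 0.80, above the mean of -0.05 for the rest of chromosome 2. Single probes of this stretch were also far from their neighbours in other tumors, with the Fnbp1 probe at 2.54 in An4 and a Gpr107 probe at -2.79 in An2, and its median was at least 0.2 above that of chromosome 2 in 10 of the 40 other tumors.

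Bin by bin, 285 of 2057 autosomal bins were higher (13.9%) and 82 lower (3.99%) in MMTV-HRas tumors than in the mean of the other 7 models (limma, adjusted p of at most 0.05). The higher bins lay on 4 autosomes: 92 of 132 bins of chromosome 6, 72 of 85 of chromosome 15, 66 of 83 of chromosome 17 and 55 of 156 of chromosome 2. The lower bins were 42 of 128 on chromosome 3, 32 of 126 on chromosome 5 and 8 of 80 on chromosome 16. Centring each array on its commonest bin level left 298 higher bins and none lower by limma, with 468 bins at an unadjusted p under 0.05. Centring on the density peak gave 297 higher and 6 lower, and normexp 0 of either by limma, with 195 bins at an unadjusted p under 0.05. The count of higher bins depended on single tumors. It was 0 without An1 (limma, 536 bins at an unadjusted p under 0.05), 44 without An3, 94 without An4, 214 without An5 and 260 without An2, and the counts of lower bins were 0, 7, 6, 45 and 70. Without the 5 arrays in doubt it was 218, with 44 lower.

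In the called bin with the largest difference on chromosome 15, chr15:20000001-21000000, the 5 tumors had a median of 0.75 (An1), 0.14 (An2), 0.71 (An3), 0.59 (An4) and 0.43 (An5). All 5 were above the mean of the other models, 0.08, and the difference was 0.45 ± 0.10 (SE, limma adjusted p = 0.0104). Its leading probe carries the name AK084059, a transcript with no symbol in the RefSeq table. The corresponding bin of chromosome 6, chr6:80000001-81000000, with AK038675, held 1.17 (An1), -0.08 (An2), 1.28 (An3), 0.57 (An4) and 0.38 (An5), a difference of 0.54 ± 0.19 (SE, limma adjusted p = 0.0454). It was also the highest bin of An1 and of An3, where the highest probe was that of BC037216. On chromosome 17 the bin was chr17:41000001-42000000 with AK089665 (0.41 ± 0.10, SE, limma adjusted p = 0.0104), and on chromosome 2 it was chr2:55000001-56000000 with AK159008 (0.38 ± 0.12, SE, limma adjusted p = 0.0251). Among the lower bins, the leading names were AK034519 on chromosome 3, Rnf32 on chromosome 5 and Grin2a, a subunit of NMDA-type glutamate receptors, on chromosome 16. The bins had 3 to 9 probes each. The 2 probes of Rnf32 itself, a RING finger protein, were at -0.62 in An1, -0.38 in An2, -0.32 in An3, -0.40 in An4 and -0.03 in An5. All 5 lay below the mean of the other models, 0.21, and the difference of -0.56 ± 0.10 (SE, limma adjusted p = 0.00228) had an adjusted p of 0.0291 with the slide as a block, 0.159 with the scan date as a block, 0.0603 without An1 and 0.778 with normexp background correction, where the difference was -0.13.

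The most extreme bins of single tumors rested on few probes. The highest bin of An5, at 0.98, lay over Magi1, a junction scaffold protein, on chromosome 6, that of An4, at 0.86, over Slitrk5 on chromosome 14, and that of An2, at 0.69, on chromosome 18 where no probe has a gene name. The lowest bins lay over Agrin on chromosome 4 in An5 (-0.67), Prkg1, a cGMP-dependent kinase, on chromosome 19 in An2 (-0.93), Hnf4g on chromosome 3 in An3 (-0.64) and C230029F24Rik on chromosome 1 in An4 (-0.89). Each of these bins had 3 or 4 probes, as did the lowest bin of An1 (-1.34, chromosome 13), which holds no gene name.

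None of the 6 Ras genes measured was called. The array has 1 probe for H-Ras, under the name Hras1 (chr7:141042967-141043018), and it was at -0.17 in An1, -0.06 in An2, 0.04 in An3, 0.09 in An4 and -0.04 in An5. The values lay among those of the other models, which ran from -0.60 to 0.34 with 1 array at 2.76, and the difference of 0.02 was within the spread (p = 0.875, exact permutation test). Whether the transgene holds the sequence of the probe was not tested. Nras, on chromosome 3, lay between -0.07 and 0.18 (difference -0.24 ± 0.11, SE, limma adjusted p = 0.189). Rras and Rras2, on chromosome 7, and Mras, on chromosome 9, had means of -0.04, -0.06 and 0.09, and none passed the test.

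Over all gene names, 602 of 20093 were higher (3.0%) and 335 lower (1.67%) by limma. Of 107 measured genes of the Ras pathway and of other mammary tumor genes, 2 were higher and 2 lower (1.87% each), which is near the background, and their median difference was -0.04 against 0.01 over all names. The calls followed the chromosomes: 258 of 1135 names on chromosome 6, 158 of 786 on chromosome 15, 94 of 1711 on chromosome 2 and 84 of 907 on chromosome 17 were higher, and 117 of 1067 on chromosome 3 and 106 of 1265 on chromosome 5 lower. With the slide as a random block, 6 names were higher and 7 lower, with the scan date as a random block none was called (limma, 2684 at an unadjusted p under 0.05), and without the 5 arrays in doubt 286 were higher and 179 lower. The counts of higher and lower names were 3 and 5 without An1, 26 and 34 without An4, 225 and 233 without An3, 687 and 364 without An5 and 1163 and 304 without An2. The values of single genes that follow are those of the fit without a block.

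Among the exchange factors that load Ras, 1 of 7 was higher. Rasgrp1, on chromosome 2, was at 0.46 in An1, 0.77 in An2, -0.01 in An3, 0.73 in An4 and 0.11 in An5, with the high values in the 2 tumors that gained all of chromosome 2. The difference was 0.42 ± 0.10 (SE, limma adjusted p = 0.0155, and 0.0978 with the slide as a block, 0.103 without An1 and 0.0979 without An4). With normexp it was 0.18 (adjusted p = 0.709, limma). Rasgrp3 and Sos1, on chromosome 17, had differences of 0.28 and 0.14 that did not pass. Of 9 GTPase activators and Spred inhibitors none was called. The largest differences were those of Dab2ip (0.27) and Spred1 (0.21) on chromosome 2 and Rasal1 (-0.20) on chromosome 5.

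In the Raf-MAPK arm, 1 of 12 genes was lower and none higher. Braf, a kinase directly below Ras with 7 probes on chromosome 6, was at 0.81, 0.01, 0.82, 0.41 and 0.36 in An1 to An5. These levels follow those of chromosome 6 in the same tumors, and the difference of 0.29 did not pass. Of 6 phosphatases and Sprouty genes that dampen this arm, none was called, with differences of 0.26 for Dusp1, 0.09 for Spry2 and -0.04 for Spry1.

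In the PI3-kinase and Ral arms, 1 of 17 genes was lower. Pik3ca, the catalytic subunit of PI3-kinase, has 2 probes on chromosome 3, and was at -0.90 in An1, -1.32 in An2, -0.31 in An3, 0.23 in An4 and -0.37 in An5. Its spread among the 5 tumors, an SD of 0.59, was far above that of chromosome 3 itself, whose level in An2 was -0.07. A mean of 2 probes varies more than one of the 2171 probes of the chromosome. No altered segment was called on chromosome 3 in any of the 5 tumors, and whether Pik3ca itself changed in copy number was not tested. The difference was -0.65 ± 0.14 (SE, limma adjusted p = 0.0111, and 0.0858 with the slide as a block and 0.107 without An1). With normexp it was -0.12 (adjusted p = 0.807, limma). Ralgds and Rgl1, exchange factors of Ral, had differences of 0.26 and 0.18 that did not pass.

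Of 16 growth factor receptors and adaptors none was called. Met, on chromosome 6, was at 0.53, -0.05, 0.77, 0.15 and 0.14 in An1 to An5 and had a difference of -0.45 from a mean that included tumors at up to 5.50. Grb2 and Kit had differences of -0.35 and -0.21. Of 14 genes of the G1 phase and the Myc family, 1 was higher: Ccnd3, which encodes cyclin D3, has 1 probe on chromosome 17 and was at 0.50 in An1, 0.37 in An2, 0.40 in An3, 0.82 in An4 and 0.21 in An5. All 5 were above the mean of the other models, 0.10, and the difference was 0.36 ± 0.10 (SE, limma adjusted p = 0.0374, and 0.142 with the slide as a block). The adjusted p was 0.0734 without the 5 arrays in doubt, 0.0541 with the other models as 1 group, 0.147 without An1, 0.0663 without An3 and 0.211 without An4 (limma), and with normexp the difference was 0.25 (adjusted p = 0.716, limma). Ccnd2, which encodes cyclin D2 and lies on chromosome 6, had a difference of 0.36 with an SE of 0.15 and did not pass, and Ccne1 one of 0.25. Myc, on chromosome 15, was named after its values were seen. It was at 0.56, 0.10, 1.20, 0.44 and 0.25 in An1 to An5, and its difference of 0.13 ± 0.50 (SE, limma adjusted p = 0.921) was taken from a mean that included tumors at up to 5.80.

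No gene of p53 and DNA repair (10 measured) and none of the genes altered or targeted in other models (10 measured) was called. In the first list the largest differences were those of Trp73 (-0.49), whose single probe ran from -1.32 in An5 to 1.60 in An3, Trp63 (-0.29) and Brca2 (-0.21). In the second they were those of Ptdsr, the array's name for Jmjd6 (-0.33), Cav2 (-0.27) and Yap1 (-0.25), each taken from a mean that included tumors above 2.

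Of single probes, 791 of 40666 were higher (1.95%) and 553 lower (1.36%) by limma. Of these 1344, 1094 (81.4%) were isolated, with neither neighbour called, and 86.6% lay on the 7 autosomes with called bins, which hold 38.2% of all probes. With the slide as a random block 1 probe was called, and with the scan date as a random block none (limma, 5344 and 4166 at an unadjusted p under 0.05). Without the 5 arrays in doubt 321 were higher and 249 lower, and without An1 16 and 30, without An4 66 and 99, without An3 403 and 488, without An5 983 and 756 and without An2 1704 and 482.

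The profiles of MMTV-HRas tumors resembled each other more than they resembled those of other models on average. This is a description over 2057 bins that share their chromosomes, and the mean r within each other model was not computed. Pearson's r had a mean of 0.37 over the 10 pairs of MMTV-HRas tumors and of 0.11 over the 200 pairs with tumors of other models. The closest pair was An1 and An3 (r = 0.71), which share the gains of chromosomes 1, 6, 15 and 17. The mean r was 0.34 over the 6 pairs on a common slide and 0.41 over the 4 pairs of An5 with the others. An2 stood apart, with r of 0.36 to An4, 0.24 to An5, 0.20 to An1 and -0.13 to An3, and its nearest profile was that of the MMTV-PyMT tumor PyMt317 (r = 0.49). By model, the mean r of MMTV-HRas tumors ran from 0.02 with MMTV-Myc to 0.20 with BRCA1-/-;p53+/-.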

How the data were processed

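DNA of 45 mammary tumors was hybridized on Agilent 44K arrays, and arrays were grouped by the model in their labels. Nothing but the labels says that tumors came from separate mice. The members, gene lists and tests were chosen with earlier results of these data known.

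The authors deposited Agilent Feature Extraction output (9.5.1.1 in the file headers, 10.7 per the labels, build mm8), with processed intensity values, corrected for background and dye, and a log10 ratio of Cy5 over Cy3 for each spot. They also deposited intervals with mean log2 ratios, called by aberration detection, of which 755 of 5412 passed 3 probes and 0.2. The p-values of that table, deposited as −log10, and the authors' tables of single models were not used.

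The log10 ratio was converted to log2 as Cy3 over Cy5 and centred on the autosomal median. Control and outlier spots were left out and spots of a probe averaged. Circular binary segmentation (Python 3.11.15, numpy 2.4.6, numba 0.67.0) used a split statistic of 6 and at least 5 probes, after single probes were clipped to 3 SD around a running median of 11 probes, a step added after seeing short segments made by single probes. Bins of 1 Mb with at least 3 probes gave 2057 medians. Bins, probes and gene names (means of their probes) entered limma 3.58.1 (R 4.3.3) in a fit of 8 models, with the contrast of MMTV-HRas against the equal-weight mean of the other 7 and Benjamini-Hochberg adjustment at 0.05. Single values were compared by two-sided exact permutation tests (scipy 1.17.1). Scripts were tested on simulated data. The number of arrays limits the precision.

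Genes named were all Ras genes, the 3 genes of every other list with the largest difference, and genes of the leading probes in the called bin with the largest difference of each autosome and in the extreme bins of each tumor. Some genes of this rule are not reported here. Of 114 listed genes 107 had a probe, and of 20093 names 14687 matched a RefSeq symbol (GRCm38.p6, used for names alone). Alternatives changed the dyes, centring, background correction, loess, dim and outlier spots, thresholds, bins, batches and groups, and left out each array in turn.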

Additional observations from a re-analysis of the deposited data

Results flagged for a closer look

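Sets of 5 values for the 5 MMTV-HRas tumors were searched for a tumor far from the others. In 5 of 24 sets searched 1 tumor stood apart. Chance alone flags about 1 in 20 sets of normally spread values, a rate that does not carry over to these sets. Some are floored at 0, such as the lost share, and others mix gained and unaltered chromosomes. Sets from the same array are also not independent. The altered share of An2 was 11.3%, below the other 4 at 27.3 to 33.2%. The lost share of An5 was 15.3%, with the other 4 at 0%. The mean of chromosome 4 was -0.41 in An5, against -0.16 to -0.08 in the others. The mean of chromosome 9 was 0.20 in An1, against -0.14 to -0.05 in the others. The mean of chromosome 14 was 0.42 in An4, against -0.17 to -0.07 in the others.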

How the results depend on the processing

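No paired analysis was possible because the replicate numbers only follow the order of the arrays. Of 1160 alternative values, 951 kept their direction and their side of the threshold or stayed within 1.5 times, 104 lost a call, 6 gained one, 92 counts moved and 7 values reversed. The depth of an array is not known beyond its signal over background, so that a gain in a small share of cells may lie below the threshold.

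With the dyes as labelled, 2 autosomes were higher and 4 lower, the gained share differed by -8.19 points and the lost share by 10.6, chromosomes 6, 15 and 17 were gained in 0 tumors and 0 Mb in at least 4, 82 bins were higher and 285 lower, and 335 gene names were higher and 602 lower. With each array centred on its density peak, 0 autosomes, 6 bins, 215 probes and 117 gene names were lower. With the peak of the bins, chosen after seeing the data, 0 autosomes, 0 bins, 163 probes and 83 gene names were lower. Of called bins, 77.7% were higher with the median, 98.0% with the density peak, 100% with the peak of the bins and 72.0% with no centring, and of called gene names 64.2, 81.2, 88.2 and 61.4%, and of called probes 58.9, 76.8, 82.6 and 55.1%. With no centring, the lost share differed by 16.1 points (p = 0.0881, exact permutation test) and the whole autosomes altered by 5.85 (p = 0.00816, exact permutation test).

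With normexp background correction, 0 autosomes were higher and 0 lower, and 0 bins, 0 probes and 0 gene names were called by limma (195, 2493 and 1381 at an unadjusted p under 0.05). The altered share differed by -0.54 points and the altered segments by 8.25, and 0 models differed in altered share. This correction reduced the probe SD of An1 from 0.23 to 0.016, and of 3 other arrays below 0.1. A threshold of 0.3 left 197.8 Mb gained in at least 4 tumors. With 5 Mb bins, 44 of 499 were lower and 84 higher. As 2 groups, 35 bins were lower, 361 probes higher and 266 lower, and 340 gene names higher and 184 lower. Without the 5 arrays in doubt, 44 bins were lower, 321 probes higher and 249 lower, 286 gene names higher and 179 lower, and the Hras1 probe differed by -0.017. With the slide as a random block, 0 probes were higher and 1 lower, and 6 gene names higher and 7 lower. With the scan date as one, 0 probes and 0 gene names were called in either direction. Leaving out dim probes could give no value for the Hras1 probe.

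Leaving out each MMTV-HRas tumor gave 0 to 4 higher and 0 to 2 lower autosomes, 0 to 260 higher and 0 to 70 lower bins, 16 to 1704 higher and 30 to 756 lower probes, and 3 to 1163 higher and 5 to 364 lower gene names. The Mb gained in at least 4 tumors ran from 0 to 324.9, since 4 tumors were left, and the Hras1 difference from -0.0053 to 0.058. The altered share differed by 0.65 to 6.13 points, the gained share by 9.04 to 13.6 and the lost share by -11.2 to -7.43. Leaving out each other tumor gave 254 to 342 higher and 64 to 126 lower bins.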
